A study of Mus musculus with 6 samples.

Results

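The proteasome is the barrel-shaped protease that degrades proteins tagged with ubiquitin. Its core particle, called 20S, is a stack of rings in which an outer alpha ring gates entry and an inner beta ring holds the protease sites. A 19S regulatory particle sits on the ends of the core, where an ATPase ring unfolds the substrate and a lid removes the ubiquitin chain. In cells exposed to interferon gamma, and constitutively in many leukocytes, the catalytic beta subunits encoded by Psmb5, Psmb6 and Psmb7 are exchanged for those of Psmb8, Psmb9 and Psmb10, which gives the immunoproteasome, a form that favours peptides for MHC class I. The genes described here were chosen by name. A symbol had to begin with Psm, then 1 letter from a to g, then a digit, and names ending in -ps were left out. The rule found 49 of the 16199 gene symbols in the table, and all 49 reached the mean level of 1 that was asked of a gene before testing.

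The libraries came from infarcted mouse myocardium collected 7 days after the left anterior descending coronary branch was tied off, in 2 groups of 3, wild type and a group labelled ITIH5 knockdown. All 6 had the ligation, so no uninjured heart is compared. The labels give no strain, sex or age, do not say how or in which cells ITIH5 was knocked down, and do not state that each library is a separate animal. The p-values below thus measure spread among libraries, which could be technical. Itih5, which encodes a secreted heavy chain that binds hyaluronan, was at 9.73, 13.1 and 17.2 in wild type, against 18.4, 10.5 and 19.96 with the knockdown label, so its transcript was not lower there (log2 difference 0.26, SE 0.27, limma adjusted p = 0.645). Every direction below refers to the labels.

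Values are on a scale close to TPM, which corrects for transcript length, and the number of reads behind them is unknown. The column sums ran from 901563 to 1159657, and low values lay mostly near whole multiples of a step of 0.893 to 1.163, which limits what genes with low values can show. The library labelled knockdown replicate 1 stood apart. It alone held values above 0 and under 0.2, 1078 of them, and it listed 212 genes at 0, against 731 to 1082 in the other 5. Mitochondrially encoded genes took 32.6% of its total, against 10.9% to 20.2% in the other 5, and its 10 heart muscle markers summed to 20707, against 6408 to 11067. The 14 macrophage and myeloid markers summed to 3688 in that library, against 6452 to 10503 in the others. These are bulk tissue samples, so fewer cells of a type and less RNA per cell cannot be told apart.

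Upstream sequence from RefSeq (GRCm38.p6) was matched for 41 of the 49 genes. The sequences below are shown as examples from the constitutive catalytic genes, the immunoproteasome genes and the 19S genes whose differences are described below. Each is printed 5′ to 3′ on the strand of its gene, and capitals mark a motif match. The genes Psmb5 (chr14:54618023-54618145, minus strand) and Psmb6 (chr11:70525207-70525356, plus strand) hold the letters TGACNNNGC, the core of the antioxidant response element bound by NFE2L1 and NFE2L2, factors known for driving proteasome genes when degradation is impaired. The lid gene Psmd14 (chr2:61711544-61711693, plus strand) and the base gene Psmd2 (chr16:20651502-20651651, plus strand) hold GC boxes (GGGCGG or, read on the other strand, CCGCCC) and no such element. For Psmb8 (chr17:34198088-34198117, plus strand) and Psmb9 (chr17:34187368-34187397, minus strand), where annotated transcripts start further upstream, only 30 bases around a match are shown, a gamma-activated site, or GAS (TTCNNNGAA), and a GC box.
Psmb5: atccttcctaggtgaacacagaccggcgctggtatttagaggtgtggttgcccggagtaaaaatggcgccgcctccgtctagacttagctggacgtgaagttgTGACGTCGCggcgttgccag
Psmb6: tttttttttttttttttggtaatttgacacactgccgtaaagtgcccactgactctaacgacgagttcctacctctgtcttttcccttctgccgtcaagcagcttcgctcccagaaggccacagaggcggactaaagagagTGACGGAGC
Psmd14: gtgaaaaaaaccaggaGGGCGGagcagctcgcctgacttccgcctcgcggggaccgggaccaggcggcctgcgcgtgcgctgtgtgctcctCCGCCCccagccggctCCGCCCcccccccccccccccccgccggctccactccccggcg
Psmd2: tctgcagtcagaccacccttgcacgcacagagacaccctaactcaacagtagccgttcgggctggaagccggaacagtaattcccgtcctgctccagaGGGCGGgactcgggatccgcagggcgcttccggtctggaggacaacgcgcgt
Psmb8: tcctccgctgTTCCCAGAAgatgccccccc
Psmb9: tgcgcgatgatgGGGCGGggcctcagtctg

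Motifs were searched on both strands in the 250 bases before the annotated start. TGACNNNGC was found for 5 of the 41 members (12.2%), Psmb5, Psmb6, Psmc6, Psmd9 and Psmd12, and for 11.5% of 27025 genes. A GAS element was found for 2 members (4.88%), Psmb8 and Psmg1, against 8.13% of all genes. The interferon-stimulated response element, ISRE, was found for Psmb3, Psmd4 and Psmd9 (7.32%), against 3.46%. GC boxes were found for 22 members (53.7%), against 35.4%. A match is a description of the letters only. Psmb9 and Tap1, which encodes a subunit of the transporter that carries peptides to MHC class I, are read away from each other on chromosome 17 from RefSeq starts 225 bases apart, at 34187330 on the minus strand and 34187556 on the plus strand.

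Proteasome genes had lower means in the libraries labelled knockdown for 43 of 49 members, and none passed the test. The median log2 difference was -0.09, with a range from -0.30 (Psmb7) to 0.14 (Psmg2), beside a median of 0.00 and 49.2% lower means over the 14025 tested genes. With limma, 0 of 49 members passed Benjamini-Hochberg adjustment over all genes, as did 0% of tested genes, and the smallest adjusted p of a member was 0.298 (Psmd2). At an unadjusted p under 0.05 there were 8 members, all lower (16.3% of members), where 6.55% of tested genes were lower and 8.29% higher. The groups did not overlap for 18 members, all lower (36.7%), where 9.88% of tested genes were lower and 12.6% higher without overlap. The other 6 members, with higher means, were Psmg2 (0.14), Psma8 (0.09), Psmf1 (0.08), Psmb3 (0.02), Psme4 (0.01) and Psma7 (0.01). Wild-type replicate 1 was the highest of the 6 libraries for 27 of 49 members. Without it, 0 members had an unadjusted p under 0.05 (2.41% of all tested genes were lower at that p). Still, 39 of 49 members were then lower (49% of all tested genes), 18 lower without overlap (11.8%) and 1 higher without overlap. Without wild-type replicate 3, 3 members had an unadjusted p under 0.05 (2.75%), 45 were lower (49.1%) and 23 did not overlap, all lower (13.7%). Without the library labelled knockdown replicate 1, 41 of 49 members were lower, 7 had an unadjusted p under 0.05 and 20 did not overlap. The same shares over all tested genes were 49.2% lower, 3.87% lower at that p and 11.9% lower without overlap.

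**Figure D1:**
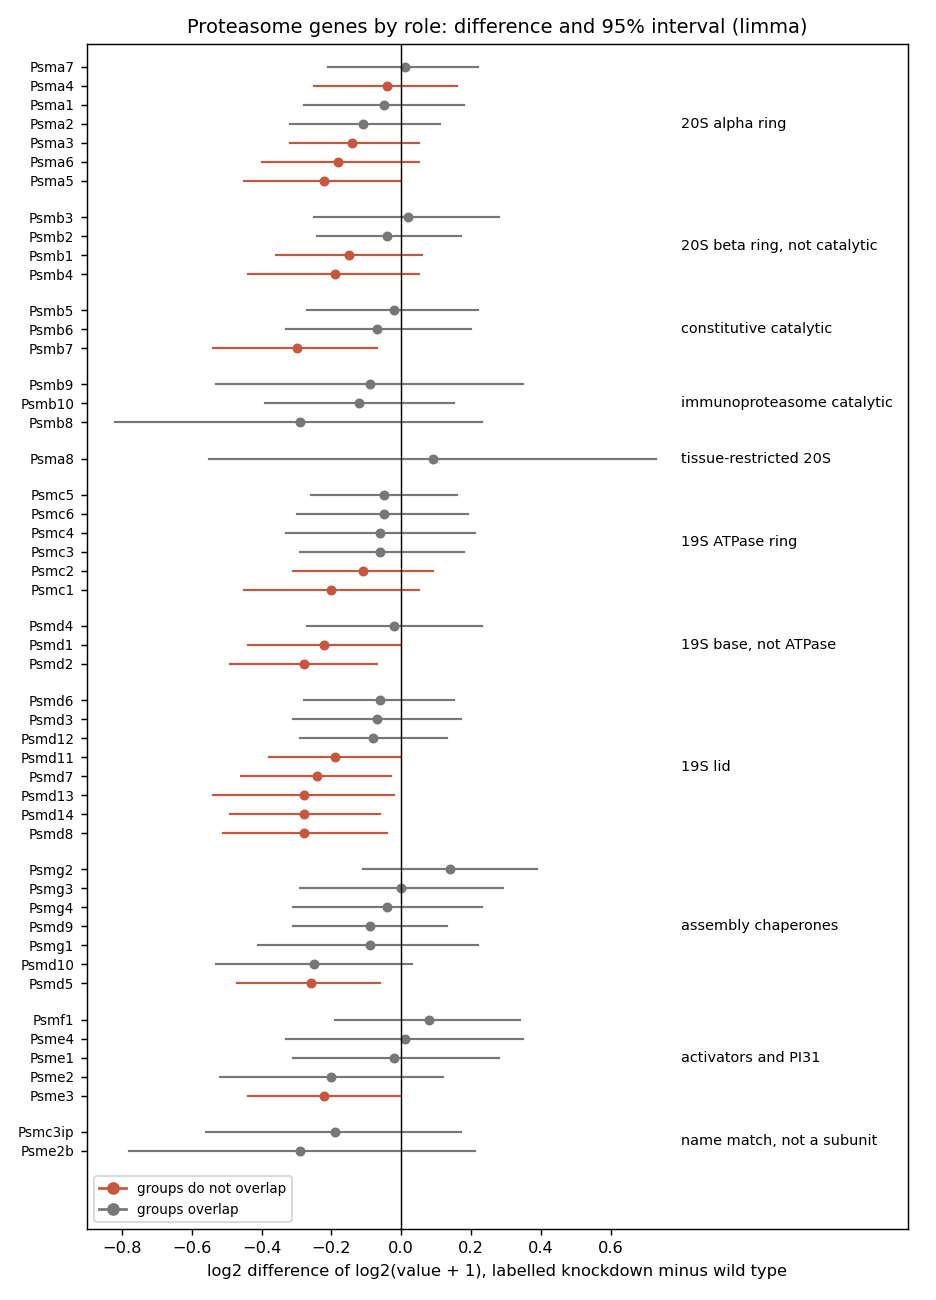
Log2 difference of log2(value + 1), labelled knockdown minus wild type, for the 49 proteasome genes grouped by role. Points are limma estimates, lines their 95% intervals, and the coloured ones are the 18 genes whose 3 + 3 libraries did not overlap, all of which lie to the left of 0.

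The scale of the deposited values bears on differences of this size. With columns rescaled to a sum of 1000000, the median of all tested genes moved to -0.13 and that of the proteasome genes to -0.23, with 47 of 49 lower and 27 without overlap, the 18 among them. Over all tested genes, 67.7% were then lower and 17.1% lower without overlap, so the rise was not limited to proteasome genes. With columns set to a common median, 46 were lower and 19 did not overlap, 17 of the 18 among them, beside 52.4% lower and 12.4% lower without overlap over all tested genes. With mitochondrially encoded genes left out before rescaling, the median of all genes was 0.05 and that of the proteasome genes -0.05. In that case 36 of 49 were lower and 12 did not overlap, all of them among the 18, beside 41.6% and 6.61% of all tested genes. Psma4, Psma6, Psmb4, Psmc1, Psmc2 and Psme3 overlapped there.

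Of the 8 members with an unadjusted p under 0.05, 6 were genes of the 19S regulatory particle. All 17 of its tested genes had lower means under the deposited scale (median -0.11), and 9 did not overlap (52.9%, beside 9.88% of all tested genes). The 20S core, without the immunoproteasome genes and Psma8, was close to this. There 12 of 14 genes had lower means (median -0.09) and 7 did not overlap (50%). At an unadjusted p under 0.05 there were 6 of 17 genes for 19S (35.3%) and 1 of 14 for this core (7.14%). The 19S genes were not tested against the other roles, and the lowest differences, those of Psmb7, Psmb8 and Psme2b, lay outside them. Psmd2, which encodes a large scaffold subunit of the base, was at 145, 132 and 142 in wild type, against 109, 117 and 117 with the knockdown label. The means were 139 ± 6.91 and 115 ± 4.46 (SD, n = 3), and the log2 difference was -0.28 (95% interval -0.49 to -0.07, limma adjusted p = 0.298). Psmd1, the other large scaffold gene, was at 96.7, 89.2 and 85.8 against 72.2, 79.0 and 81.8 (-0.22, SE 0.09). Both were lower in every library labelled knockdown than in any wild-type library. Psmd4, the gene of a ubiquitin receptor of the base, overlapped at 128, 123 and 110.0 against 122, 108 and 127 (-0.02, SE 0.11), and was the only 19S gene whose direction changed with a rescaling (0.03 with mitochondrially encoded genes left out).

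In the lid, all 8 genes had lower means (median -0.22), 5 with an unadjusted p under 0.05, and these 5 did not overlap, namely Psmd7, Psmd8, Psmd11, Psmd13 and Psmd14. Both shares were 62.5%, beside 6.55% and 9.88% of all tested genes. Psmd14 encodes the deubiquitinase that cuts the chain from the substrate. It was at 107, 96.8 and 102 in wild type, against 79.2, 88.6 and 84.8 with the knockdown label (102 ± 5.37 against 84.2 ± 4.71, SD, n = 3; log2 difference -0.28, SE 0.09, limma adjusted p = 0.3). Psmd7, its structural partner in the lid, was at 164, 145 and 154 against 129, 135 and 127 (-0.24, SE 0.09). Psmd8 was at 182, 162 and 169.8 against 132, 151 and 141 (-0.28, SE 0.10). The lid genes Psmd13 (99.7, 82.6 and 87.7 against 67.6, 75.1 and 78.8) and Psmd11 (52.8, 49.8 and 52.4 against 45.4, 46.2 and 43.9) are members as well. The rule for singling out genes, given with the processing, did not select Psmd13 and Psmd11, which were picked after their values were seen. Psmd3 (-0.07), Psmd6 (-0.06) and Psmd12 (-0.08) overlapped between the groups. As a mean over the 8 genes of the deviation from each gene's own 6-library mean, the lid stood at 0.16, 0.02 and 0.09 in wild type, against -0.10, -0.08 and -0.09 with the knockdown label. On this measure the groups also lay apart for the alpha ring (0.04 to 0.08 against -0.09 to -0.03). The same held for the base without its ATPase genes (0.03 to 0.17 against -0.13 to -0.02). For the lid, the libraries labelled knockdown were close to each other, replicate 1 included, while wild type had the wider spread (SD 0.07 against 0.01). That was not particular to the lid, as the ATPase ring had SDs of 0.08 and 0.02. In the alpha ring they were 0.02 and 0.03. All 8 lid genes also had lower means under each of the 3 rescalings, 5 to 7 of them without overlap, with medians of -0.36, -0.24 and -0.17. The ATPase ring kept 6 of 6 lower means, but 0 to 4 were without overlap. Over all tested genes, 6.61% to 17.1% were lower without overlap under these rescalings.

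**Figure D2:**
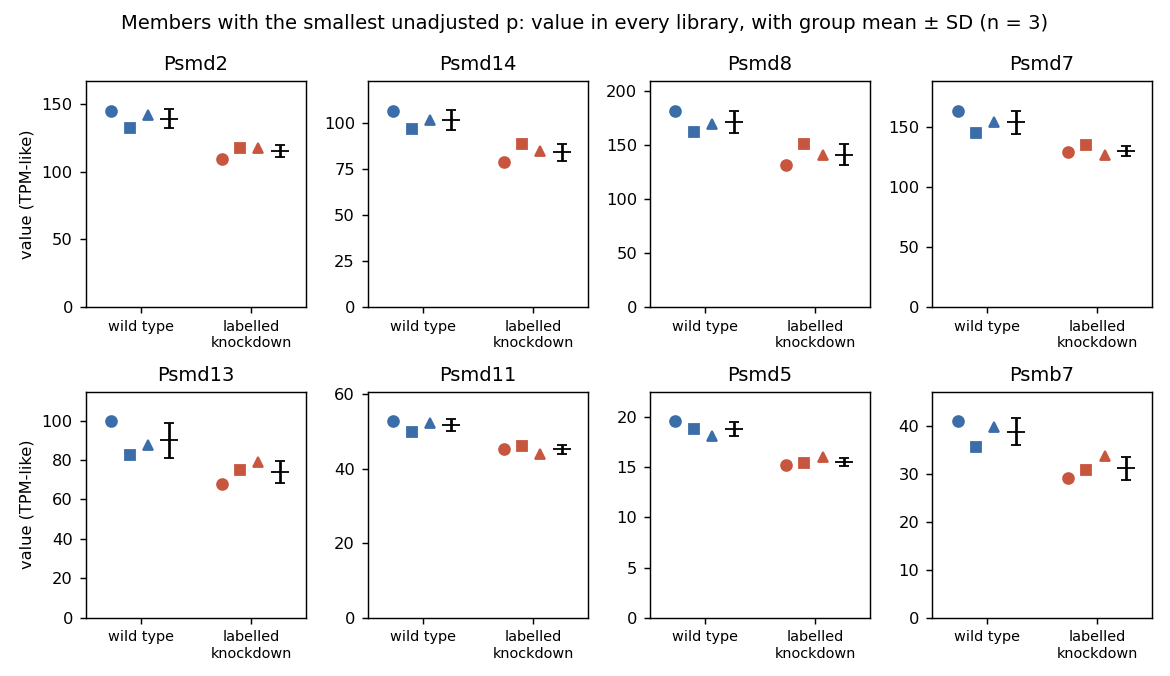
Value (TPM-like, axes from 0) in every library for the 8 members with an unadjusted p under 0.05, wild type in blue and labelled knockdown in red, with circles, squares and triangles for replicates 1, 2 and 3 and black bars for the group mean ± SD. In each panel the 3 libraries labelled knockdown lie below the 3 wild-type libraries, as for Psmd2, at 109 to 117 against 132 to 145.

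The 6 ATPase genes, whose products thread the substrate into the core, also had lower means, by less (median -0.06), and none had an unadjusted p under 0.05. Psmc1 was at 209, 183 and 173 in wild type, against 171, 157 and 164 with the knockdown label (-0.20, SE 0.11). Psmc2 was at 58.6, 61.1 and 56.9 against 54.6, 52.0 and 56.9 (-0.11, SE 0.08), so its absence of overlap rests on a gap smaller than the printed digits. Psmc3, the most abundant of the ring at a mean of 193, overlapped at 216, 191 and 186 against 191, 181 and 196. Psmc4, Psmc5 and Psmc6 lay between -0.06 and -0.05 and overlapped. Wild-type replicate 1 was high for this ring (mean deviation 0.12), whereas wild-type replicate 3 (-0.03) lay within the range of the libraries labelled knockdown (-0.07 to -0.02).

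In the alpha ring of the 20S core, 6 of 7 genes had lower means (median -0.11) and 4 did not overlap (57.1%, beside 9.88% of all tested genes). With mitochondrially encoded genes left out, 5 of the 7 had lower means and 2 did not overlap, beside 6.61% of all tested genes. Psma5 was at 158, 149 and 149.9 in wild type, against 119.9, 141 and 132 with the knockdown label (-0.22, SE 0.10). Psma6 (232, 209 and 222 against 207, 191 and 189.6) and Psma3 (106, 106 and 110.2 against 96.5, 99.2 and 97.8) did not overlap either. The most abundant alpha gene, Psma4, did not overlap by a small margin, at 249, 257 and 247 against 246, 241 and 244 (-0.04, SE 0.09). Psma1, Psma2 and Psma7 overlapped (-0.05, -0.11 and 0.01). In the non-catalytic part of the beta ring, Psmb4, the most abundant member of all with a mean of 289, was at 327, 305 and 292 against 258, 261 and 290.4 (-0.19, SE 0.10). Psmb1 was at 177, 167 and 166 against 145, 158 and 158 (-0.15, SE 0.09), whereas Psmb2 (-0.04) and Psmb3 (0.02) overlapped.

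The constitutive catalytic genes did not share a size of difference. In GENCODE M21 (GRCm38), Psmb5 lies at chr14:54614119-54618022, Psmb6 at chr11:70525367-70527858 and Psmb7 at chr2:38588036-38644087. Psmb7, which encodes the trypsin-like subunit, was at 41.1, 35.7 and 39.9 in wild type, against 29.2, 30.8 and 33.9 with the knockdown label. Its means were 38.9 ± 2.82 and 31.3 ± 2.4 (SD, n = 3), the log2 difference was -0.30 (95% interval -0.54 to -0.07, limma adjusted p = 0.3) and the groups did not overlap. Psmb5, which encodes the chymotrypsin-like subunit that the drug bortezomib inhibits, was at 257, 269 and 224 against 251, 244 and 241 (-0.02, 95% interval -0.27 to 0.22). Psmb6, which encodes the caspase-like subunit, was at 304, 298 and 253 against 260.0, 268 and 286 (-0.07, 95% interval -0.33 to 0.20). For both, the libraries labelled knockdown lay inside the wild-type range. Per length, Psmb7 was far below its partners, with a mean level of 35.1 against 278 for Psmb6, 7.93 times as much.

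The immunoproteasome genes varied widely among the libraries labelled knockdown. Psmb8 (chr17:34197721-34201454) and Psmb9 (chr17:34181987-34187764) lie in the MHC region, and Psmb10 at chr8:105935735-105938444. Psmb8, the counterpart of Psmb5, was at 57.6, 54.4 and 51.7 in wild type, against 34.0, 39.5 and 64.9 with the knockdown label. Replicates 1 and 2 of that group lay below every wild-type library and replicate 3 above every one. The means were 54.6 ± 2.97 and 46.1 ± 16.5 (SD, n = 3), with a log2 difference of -0.29 (95% interval -0.82 to 0.23, limma adjusted p = 0.522). Psmb9, the counterpart of Psmb6, showed the same order, at 20.5, 21.6 and 19 against 15.2, 17.3 and 25.9 (-0.09, SE 0.19). Psmb10, the counterpart of Psmb7, was at 92.8, 89.2 and 83.1 against 81.2, 71.2 and 91.8 (-0.12, SE 0.12), with replicate 3 inside the wild-type range. The coefficient of variation of these 3 genes was 5.44% to 6.35% in wild type and 12.6% to 35.7% in the libraries labelled knockdown. For the constitutive 3 it was 7.26% to 9.64% and 2.09% to 7.66%. Over the 40 members with a mean of at least 20 other than the immunoproteasome genes, its median was 5.83% and 5.91%. The highest values there were 15.2% (Psmg1) in wild type and 18.8% (Psme4) with the knockdown label. Psme4, Psme2 (17.5%) and Psme1 (14.6%) thus varied more with that label than Psmb10 (12.6%), though less than Psmb8 and Psmb9. The order of Psmb8 and Psmb9 was shared by other core genes. Psma2 was at 87.9, 87.3 and 87.6 in wild type, against 75.6, 79.9 and 88.8 with the knockdown label. Psmb2 was at 181, 182 and 174 against 171, 169.5 and 184. Replicate 3 of the labelled knockdown was the highest of the 6 libraries for 9 of 49 members.

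**Figure D3:**
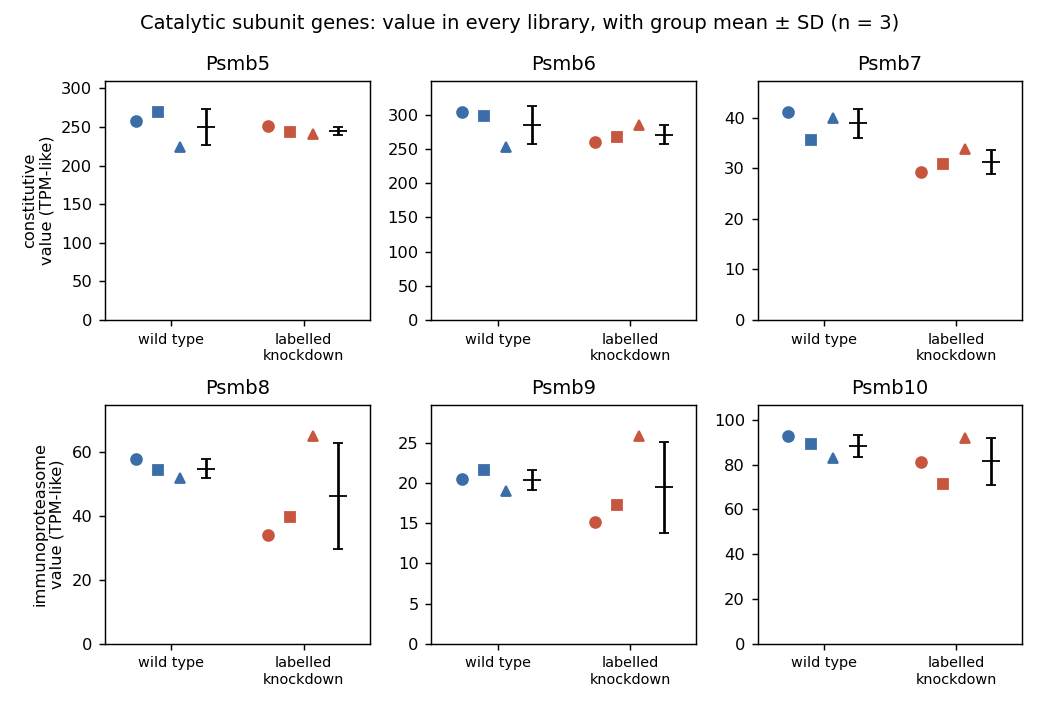
Value (TPM-like, axes from 0) of the constitutive (top) and immunoproteasome (bottom) catalytic genes in every library, wild type in blue and labelled knockdown in red, with circles, squares and triangles for replicates 1, 2 and 3 and black bars for the group mean ± SD. Labelled knockdown replicate 3 (triangle) lies above all wild-type libraries for Psmb8 (64.9) and Psmb9 (25.9), and replicates 1 and 2 below.

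Set against each other, the mean log2 level of Psmb8, Psmb9 and Psmb10 minus that of Psmb5, Psmb6 and Psmb7 was -1.60, -1.57 and -1.57 in wild type, against -1.80, -1.76 and -1.29 with the knockdown label. Wild type was nearly constant (-1.58 ± 0.02, SD, n = 3), and the other group lay on either side of it (-1.62 ± 0.28). The group means differed by -0.04, far less than the spread among the libraries labelled knockdown. Without replicate 3 of that group the difference was -0.20, and without replicate 1 it was 0.05. As the genes were chosen for this contrast, it is a description with no test.

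By partner pair, Psmb8 made up 18.3%, 16.8% and 18.8% of Psmb8 plus Psmb5 in wild type, against 11.9%, 13.9% and 21.2% with the knockdown label. Psmb9 made up 6.32%, 6.76% and 6.98% of Psmb9 plus Psmb6, against 5.53%, 6.08% and 8.31%. Psmb10 made up the larger part of its pair in all 6 libraries, at 69.3%, 71.4% and 67.6% of Psmb10 plus Psmb7 against 73.5%, 69.8% and 73.0%. Psmb10 and Psmb7 both had lower means in the libraries labelled knockdown, and the share of this pair did not take the order of the other two.

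Among the activators, Psme1 and Psme2 encode the PA28 cap, which interferon gamma induces together with the immunoproteasome. Psme2 was at 204, 197 and 185 in wild type, against 149, 159.9 and 206 with the knockdown label (-0.20, SE 0.14). Psme1 was at 120.1, 126 and 110.1 against 110.2, 106 and 138 (-0.02, SE 0.13). For both, replicate 3 of the labelled knockdown was the highest of the 6 libraries, as for Psmb8 and Psmb9. Psme3, the gene of a nuclear activator that interferon does not induce, was at 55.7, 51.7 and 60.7 against 47.7, 46.2 and 49.9 and did not overlap (-0.22, SE 0.09). Psme4, which encodes the activator PA200, was at 41.0, 39.5 and 44.2 against 49.7, 43.3 and 33.9 (0.01, SE 0.14), with replicate 3 lowest of all. Psmf1, which encodes the proteasome-binding protein PI31, was at 15.6, 12.1 and 14.4 against 15.1, 14.4 and 15.0 (0.08, SE 0.11).

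**Figure D4:**
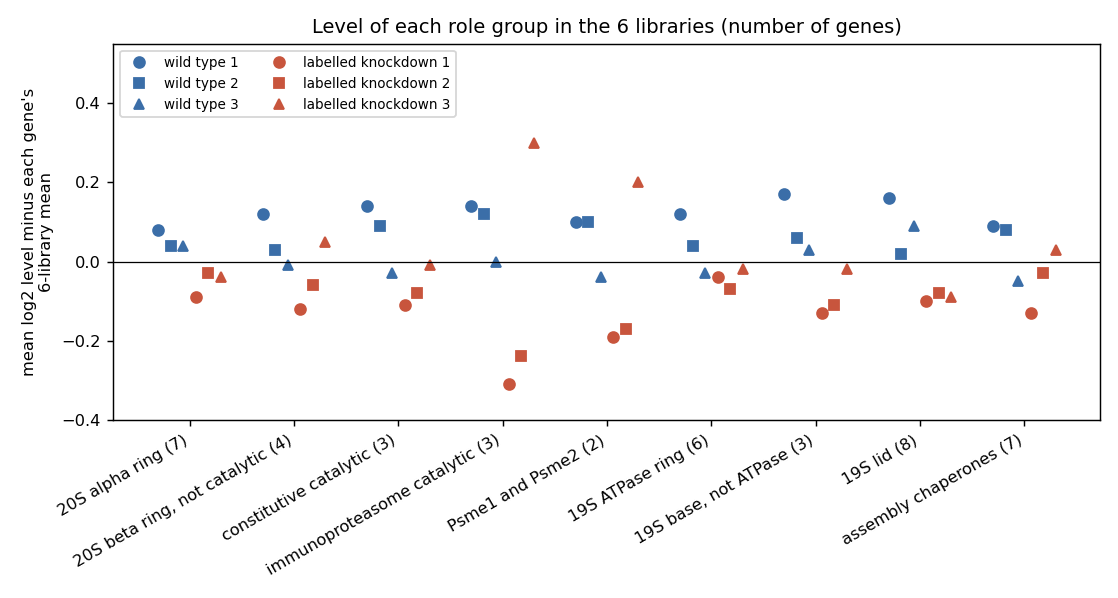
Mean over the genes of each role of the log2 level minus the gene's own 6-library average, for wild type (blue) and labelled knockdown (red), with the number of genes in brackets. The lid groups lie apart (0.02 to 0.16 against -0.10 to -0.08). So do those of the alpha ring (0.04 to 0.08 against -0.09 to -0.03) and of the base without its ATPase genes (0.03 to 0.17 against -0.13 to -0.02). Labelled knockdown replicate 3 is highest for the immunoproteasome genes (0.30) and for Psme1 and Psme2 (0.20).

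Of the 7 assembly chaperone genes, 6 had lower means (median -0.09) and 1 did not overlap (14.3%, near the 9.88% of all tested genes). Psmd5, whose product helps build the base and then leaves, was at 19.6, 18.8 and 18.1 in wild type, against 15.2, 15.4 and 15.97 with the knockdown label (18.8 ± 0.723 against 15.5 ± 0.412, SD, n = 3; log2 difference -0.26, SE 0.09, limma adjusted p = 0.3). Psmd10, the gene of the base chaperone gankyrin, was at 39.1, 31.0 and 39.0 against 28.1, 30.8 and 31.9 (-0.25, SE 0.12). Psmg2, which encodes a chaperone of the alpha ring, was at 34.1, 42.3 and 35.1 against 39.4, 40.5 and 42.9 (0.14, SE 0.11). Psmd9, Psmg1, Psmg3 and Psmg4 lay between -0.09 and -0.00 and overlapped.

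Psma8, which encodes the alpha subunit of the testis, was within about 2 steps of 0 in every library, at 0.970, 0.919 and 1.82 against 1.18, 0.954 and 2.00, and can show no difference here. Psmc3ip and Psme2b match the name rule without being proteasome subunits. Psmc3ip encodes a meiotic recombination factor and was at 3.83 to 5.86. Psme2b, a near copy of Psme2 with which it may share reads, was at 3.99 to 8.20. Psmb11, the beta subunit gene of the thymus, was not analysed here. Leaving both out gives 41 of 47 lower, with the same 8 and 18 counts.

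Genes that feed the proteasome were taken from a list of ubiquitin, shuttle, accessory and regulator genes. Of 27 tested, 17 had lower means (median -0.01), 0 passed the test, 3 had an unadjusted p under 0.05 (11.1%) and 5 did not overlap (18.5%), all lower, beside 6.55% and 9.88% of all tested genes. Uba1, the gene of the main ubiquitin-activating enzyme, was at 109, 104 and 115 in wild type, against 89.6, 93.4 and 96.8 with the knockdown label (-0.23, SE 0.09). Ubqln1, which encodes a shuttle that carries ubiquitinated proteins, was at 59.6, 54.5 and 62.4 against 49.0, 53.9 and 46.9 (-0.23, SE 0.10). Zfand2a, an arsenite- and heat-induced gene, was at 22.5, 17.8 and 19.02 against 15.2, 16.4 and 15.0 (-0.33, SE 0.11). Pomp, which encodes the maturation factor of the core, overlapped at 69.3, 65.7 and 59.5 against 61.5, 64.6 and 66.9 (-0.01, SE 0.09). Nfe2l1, the gene of the transcription factor named above, overlapped at 110.4, 104 and 121 against 124, 109.8 and 101 (-0.01, SE 0.11). Of 8 ubiquitin ligase genes of muscle and stress, 4 were lower and 4 higher in mean (median -0.00), and none had an unadjusted p under 0.05.

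For interferon signalling and class I presentation, 17 of 22 tested genes had lower means (77.3%, beside 49.2% of all tested genes). The median was -0.14 and 0 passed the test. There were 2 without overlap and 2 with an unadjusted p under 0.05, all lower (9.09% each). Over all tested genes, 9.88% were lower without overlap and 6.55% lower at that p, so these counts lay near the share of all genes. The interferon receptor gene Ifngr2 was among them, at 62.5, 58.3 and 63.3 against 51.3, 53.9 and 50.9 (-0.23, SE 0.08). Ifng itself was under the level tested, at 0.977, 0.939 and 0 in wild type and listed at 0 in the libraries labelled knockdown. Irf1, a transcription factor gene induced by interferon gamma, overlapped at 71.3, 58.1 and 62.2 against 66.0, 59.7 and 74.8 (0.06, SE 0.12). Tap1, the divergent neighbour of Psmb9, was at 31.3, 27.2 and 32.6 against 23.4, 27.0 and 33.9 (-0.12, SE 0.15), with replicate 3 of the labelled knockdown the highest of the 6, as for Psmb9. The class I gene H2-K1, picked after its values were seen, had that order too, at 852, 879.8 and 864 against 642, 613 and 1067. The 22 tested genes had a mean deviation of 0.09, 0.02 and 0.09 in wild type, against -0.22, -0.09 and 0.11 with the knockdown label.

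Leukocyte markers also differed between libraries. The 9 lymphocyte markers had a mean deviation of 0.14, 0.08 and 0.93 in wild type, against -0.95, -0.83 and 0.63 with the knockdown label, low in replicates 1 and 2 of that group, where Psmb8, Psmb9 and Psme2 were lowest. Wild-type replicate 3, highest for these markers, was the lowest wild-type library for Psmb8, Psmb9 and Psmb10. Their summed level ran from 72.9 to 182 in wild type and from 27.0 to 109.8 in the libraries labelled knockdown, and 8 of 9 had lower means. The 14 macrophage and myeloid markers all had lower means (median -0.52), with deviations of 0.51, 0.13 and 0.23 against -0.84, -0.02 and 0.00, and none was at 0 in any library. Of these 14, 6 had an unadjusted p under 0.05 (42.9%) and 5 did not overlap (35.7%), beside 6.55% and 9.88% of all tested genes. Replicates 2 and 3 of the labelled knockdown had nearly the same myeloid deviation but differed in that of the immunoproteasome genes (-0.24 and 0.30). The 10 heart muscle markers all had higher means (median 0.69), with deviations of -0.32, -0.26 and -0.44 in wild type, against 1.21, 0.25 and -0.44 with the knockdown label. Of these 10, 1 had an unadjusted p under 0.05 and 4 did not overlap, all higher. Over all tested genes, 8.29% were higher at that p and 12.6% higher without overlap. The fibroblast (5 of 8 lower, median -0.19) and endothelial (1 of 8 lower, median 0.39) markers overlapped between the groups. The part of cell makeup in the differences of the proteasome genes was not tested.

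**Figure D5:**
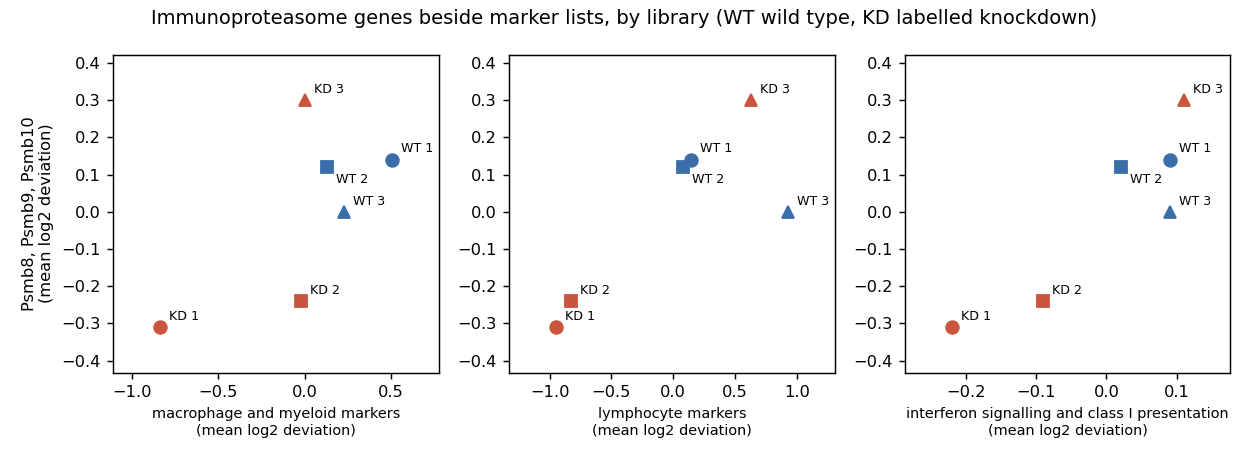
Mean log2 deviation of Psmb8, Psmb9 and Psmb10 (vertical axis) beside that of 3 other gene lists (horizontal axes) in the 6 libraries, wild type (WT, blue) and labelled knockdown (KD, red), numbered by replicate. Labelled knockdown replicates 1 and 2 are lowest on the vertical axis (-0.31 and -0.24). They are also lowest on the myeloid (-0.84 and -0.02), lymphocyte (-0.95 and -0.83) and interferon and class I (-0.22 and -0.09) axes. Labelled knockdown replicate 3 is highest on the vertical axis (0.30) and on the interferon and class I axis (0.11), but not on the other axes.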

How the data were processed

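Poly(A)-selected RNA from 6 libraries was sequenced per the labels' protocols, which name 2 library kits for every sample without saying which was used for which. In addition, the submitters' processing notes name the mouse build mm10. No source used here names the aligner, quantifier or annotation. The authors deposited 1 table of scores per gene and library, named as TPM. Its columns do not sum to 1000000, and 97.3% to 100.0% of low values (about 1 to 3 steps) lie within 0.15 steps of a whole multiple of a step particular to each library, so the scores were treated as TPM-like values adjusted between libraries in an unstated way. Read depth is unknown.

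Of 16205 rows, 6 that share a symbol were left out. The 14025 genes averaging 1 or more were fitted on log2(value + 1) with limma 3.58.1 (intensity trend, R 4.3.3), 3 libraries a group, with Benjamini-Hochberg adjustment over all of them at 0.05. The added 1 understates the differences of low genes. The design foresaw TPM, and its test was used on these adjusted scores without change. The fit was tested on simulated log2 values with known changes, which does not bear on the authors' adjustment. Intervals are 95%. A group does not overlap when every library lies on 1 side of every library of the other.

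Gene positions are from GENCODE M21 and upstream sequence from RefSeq, both on GRCm38. The members, the gene lists (roles, ubiquitin delivery, interferon and class I, muscle ligases, and macrophage, lymphocyte, heart muscle, fibroblast and endothelial markers) were chosen with earlier results of these data known. Named genes were the 6 catalytic genes of the contrast, Psme1 and Psme2, in each role the 3 with the smallest unadjusted p and the most abundant one, and in other lists up to 3 with the smallest unadjusted p plus Pomp, Nfe2l1, Tap1 and Irf1. Some genes that the rule names are not reported here. Alternatives were other pseudocounts, filters and scalings, no trend, a replicate block, and each library left out.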

Additional observations from a re-analysis of the deposited data

How the results depend on the processing

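Under all 15 alternatives 0 proteasome genes passed the adjusted threshold, and of the 60 named genes other than Itih5 the smallest adjusted p from limma was 0.111. The count at an unadjusted p under 0.05 (8 as reported) was 15 with columns rescaled to a sum of 1000000, where 9.92% of all tested genes were lower at that p. It was 5 with mitochondrially encoded genes left out (4.39% of all tested genes), and 0 to 9 with a library left out (2.41% to 8.76%). With the replicate number as a replicate block it was 1 of 49, a smaller share than the 5.45% of all tested genes. The deviations of same-numbered libraries correlated at 0.06, 0.06 and 0.14 across genes, and no label says that a number marks a shared source, so the numbers were not taken as pairs. The median over members was -0.23 after rescaling to a sum and -0.14 to -0.09 with a library left out, and Itih5 was at 0.06 to 0.52. The contrast of immunoproteasome with constitutive genes ran from -0.20 to 0.05 with a library left out. Of the named genes, 47 of 60 kept direction and side of the threshold under all 15 alternatives. The others lay near 0 and changed sign without passing any threshold. After rescaling to a sum these were Fbxo30 (-0.03), Irf1 (-0.08) and Psmf1 (-0.06). With mitochondrially encoded genes left out they were Nfe2l1 (0.04), Pomp (0.04), Psma4 (0.0038), Psmb2 (0.01), Psmb5 (0.02), Psmd4 (0.03) and Psme1 (0.03). With a library left out, log2 differences ran from -0.02 to 0.14 for Irf1, -0.09 to 0.06 for Nfe2l1, -0.07 to 0.04 for Pomp, -0.09 to 0.27 for Psma8, -0.10 to 0.03 for Psmb5, -0.31 to 0.06 for Psmb9, -0.10 to 0.01 for Psmc3, -0.08 to 0.05 for Psmd4, -0.13 to 0.06 for Psme1 and -0.02 to 0.15 for Psmf1. The cause of these changes was not tested. Read depth is unknown, so no counting error could be given.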
